A study of Mus musculus with 6 samples.

Results

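Regulators of G-protein signalling (RGS proteins) were examined as 10 genes of the family, Rgs2, Rgs3, Rgs4, Rgs10, Rgs12, Rgs14, Rgs16, Rgs17, Rgs19 and Rgs20, out of 56691 genes in the deposited expression table. The genes were taken by symbol, and each symbol matched 1 row. The family was chosen by a measured value, the low level of Rgs16 with KIRA6. The difference between the groups is therefore described for these genes with no p-value, and how many passed the threshold is given as a description only. RNA came from 4T1 cells, a mouse mammary carcinoma line, grown overnight before a change of medium. Cells of 3 libraries received KIRA6 at 1 µmol/L for 4 h, and cells of the other 3 received vehicle for 4 h. KIRA6 inhibits IRE1α, a sensor of stress in the endoplasmic reticulum, by occupying its kinase domain, which lowers its RNase activity. No genetic change is named for either group, the vehicle is not named, and all libraries come from this 1 cell line. The labels do not say that libraries of a group came from separate cultures, so their spread may be technical.

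An activated heterotrimeric G protein holds GTP on its alpha subunit, and the signal ends when that GTP is hydrolysed. RGS proteins bind the active alpha subunit through a shared RGS domain and speed up this hydrolysis, which shortens signals from G-protein-coupled receptors. The R4 subfamily (Rgs2, Rgs3, Rgs4 and Rgs16 here) holds mostly small proteins that act on Gi or Gq alpha subunits. The R12 subfamily (Rgs10, Rgs12 and Rgs14) acts mainly on Gi, and Rgs12 and Rgs14 carry further domains that bind RAS-type GTPases and inactive Gi alpha. The RZ subfamily (Rgs17, Rgs19 and Rgs20) has a cysteine-rich stretch near the amino terminus and acts on Gi and Gz. Several R4 genes are inducible, and their mRNA levels change with the signals a cell receives.

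Promoter sequence from RefSeq on GRCm38.p6 was matched for 8 of the 10 genes. The 3 printed here belong to the genes with the largest differences between the groups, Rgs16 (lower with KIRA6), Rgs2 and Rgs10 (higher with KIRA6). Each runs from 250 bases before to 50 bases after the annotated start, 5′ to 3′ on the gene's strand. The windows are chr1:153740103-153740402 on the plus strand for Rgs16, chr1:144004100-144004399 on the minus strand for Rgs2 and chr7:128418123-128418422 on the minus strand for Rgs10. Capitals mark the letters TGACG, the half-site of the cAMP response element, on either strand.
Rgs16: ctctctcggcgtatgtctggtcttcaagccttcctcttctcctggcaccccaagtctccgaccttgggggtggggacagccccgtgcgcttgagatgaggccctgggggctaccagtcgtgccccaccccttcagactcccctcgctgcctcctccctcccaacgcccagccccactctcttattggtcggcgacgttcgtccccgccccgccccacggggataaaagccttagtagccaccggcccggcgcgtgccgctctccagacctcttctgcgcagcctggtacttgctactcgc
Rgs2: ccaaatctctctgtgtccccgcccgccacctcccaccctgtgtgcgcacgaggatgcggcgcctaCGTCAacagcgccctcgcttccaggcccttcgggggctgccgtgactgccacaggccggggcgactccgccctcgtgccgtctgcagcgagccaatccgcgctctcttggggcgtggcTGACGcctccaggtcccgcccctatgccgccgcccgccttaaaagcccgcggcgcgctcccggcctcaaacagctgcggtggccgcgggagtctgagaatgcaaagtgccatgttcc
Rgs10: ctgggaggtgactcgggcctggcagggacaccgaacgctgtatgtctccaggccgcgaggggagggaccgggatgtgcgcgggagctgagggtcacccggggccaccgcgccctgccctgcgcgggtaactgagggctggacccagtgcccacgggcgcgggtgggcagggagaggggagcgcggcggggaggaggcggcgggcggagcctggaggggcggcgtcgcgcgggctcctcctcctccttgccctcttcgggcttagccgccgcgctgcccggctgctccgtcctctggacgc

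These windows were rich in G and C, with 66.0% for Rgs16, 70.0% for Rgs2 and 76.0% for Rgs10, against a median of 52.7% over 32851 promoter windows of the same length. They held 22, 33 and 34 CG dinucleotides in the order printed, against a median of 7. Some windows of other members were as rich in G and C, so this is not particular to the 3 genes printed. The share was 71.0% for Rgs17, 70.3% and 55.3% for Rgs12 and 66.7%, 72.7% and 53.3% for Rgs19. For Rgs3 it was 49.7% and 58.7%, and for Rgs4 53.0%. Motifs were searched on both strands. The full cAMP response element was spelled TGACGTCA, and its half-site, which is part of the full element, TGACG. The AP-1 site was spelled TGANTCA and the ETS site CCGGAAG. The FOXO site was spelled TGTTTAC and the TATA box TATAAA. The CArG box of serum response factor was the last of the 7. In the Rgs2 window the half-site was found at bases −185 to −181 and −67 to −63, and 20.8% of all windows hold at least 1. The half-site was also found 2 times in the Rgs4 window and 1 time in a window of Rgs12. None of the 7 motifs was found in the Rgs16 or Rgs10 window. These letters are held by 1.79% (full cAMP response element), 7.81% (AP-1), 8.86% (ETS), 3.65% (FOXO), 13.6% (TATA box) and 1.63% (CArG box) of all windows. A match describes the sequence, and no binding was measured.

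The libraries held an estimated 18214912 to 21348529 fragments assigned to genes with KIRA6 and 16495561 to 18585411 with vehicle. Levels are given as FPKM, the fragments of a gene scaled to the length of its exons and to the fragments of its library. A single exonic length was used for each gene whatever transcripts it makes, so levels compare only roughly between genes. The share of fragments from the mitochondrial genome was 2.66% to 3.25% with KIRA6 and 1.75% to 2.03% with vehicle, and the part of this difference in the results was not tested. The 8 mammary epithelial markers were expressed in every library, with a summed level of 1662 to 1765 FPKM with KIRA6 and 1421 to 1554 FPKM with vehicle. Of these 8, 4 rose by limma with Benjamini-Hochberg adjustment (Krt19, Epcam, Cldn3 and Cldn4) and 0 fell, with a list median log2 fold change of 0.73. Over all tested genes 15.6% were called higher and 7.98% lower, with a median of 0.16. With median-ratio scaling the list median was 0.54. Krt19, a keratin of simple epithelia, rose most, to 110.5 ± 6.70 FPKM with KIRA6, against 22.4 ± 2.21 FPKM with vehicle (SD, n = 3 each; adjusted p = 0.000478), and the part of these changes in the RGS values was not tested. The Cldn3 call ended with median-ratio scaling, after rescaling as TPM and without KIRA6 replicate 2 or 3 or Vehicle replicate 1 or 2 (adjusted p up to 0.102). Of 12 markers of other cell types only Pdgfra, a receptor of mesenchymal cells, passed the filter on low values. The summed level of those 12 was 1.84 to 3.71 FPKM with KIRA6 and 0.410 to 0.790 FPKM with vehicle, of which Pdgfra made 1.80 to 3.69 FPKM with KIRA6 and 0.390 to 0.710 FPKM with vehicle. On the second principal component of all tested genes KIRA6 replicate 1 and Vehicle replicate 3 lay apart from the rest of their groups, and values without both are given where they matter.

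Of the 10 RGS genes, 6 passed the filter of a mean of 0.5 FPKM over the 6 libraries (Rgs2, Rgs3, Rgs10, Rgs12, Rgs16 and Rgs19), and 4 did not (Rgs4, Rgs14, Rgs17 and Rgs20). The 6 differed in direction. Rgs16 was far lower with KIRA6 and Rgs19 somewhat lower, Rgs2 and Rgs10 were higher, and Rgs3 and Rgs12 overlapped between the groups. In the limma fit over all 11778 tested genes, 3 of the 6 were past an adjusted p of 0.05, Rgs2 and Rgs10 higher and Rgs16 lower. Over all tested genes 23.6% were called, 15.6% higher and 7.98% lower. The KIRA6 and vehicle libraries did not overlap for 4 of the 6, with 2 higher and 2 lower, and for 41.8% of all tested genes, 27.7% higher and 14.1% lower. This contrast chose the family, so nothing is read from these counts.

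**Figure D1:**
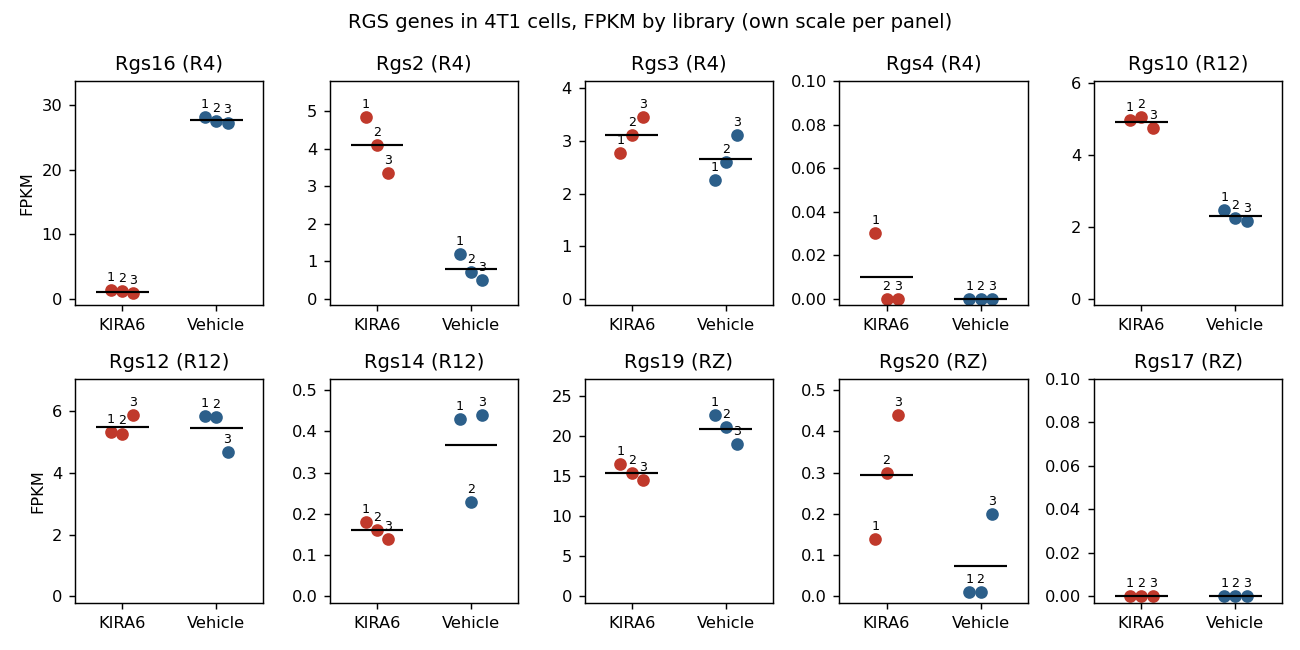
FPKM of each of the 10 RGS genes in each library, with KIRA6 on the left and vehicle on the right of every panel; each panel has its own linear scale, points carry the replicate number and the black line is the mean of 3. The Rgs16 points lie between 0.840 and 1.34 with KIRA6 and between 27.4 and 28.2 with vehicle, while Rgs12 overlaps.

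Rgs16, an R4 protein that acts on Gi and Gq alpha subunits, is encoded on chromosome 1 from 153616095 to 153621214 on the plus strand of GRCm39 (ENSMUSG00000026475). Rgs16 had 1.34, 1.13 and 0.840 FPKM in KIRA6 replicates 1 to 3, against 28.16, 27.52 and 27.35 FPKM in Vehicle replicates 1 to 3. The groups lie far apart, and the vehicle libraries are nearly equal. In fragments these levels rest on 67, 48 and 39 with KIRA6 and on 1199, 1062 and 1189 with vehicle. Mean Rgs16 was 1.10 ± 0.251 FPKM with KIRA6 and 27.7 ± 0.427 FPKM with vehicle (SD, n = 3 each), 25.1-fold lower with KIRA6. In a bulk culture, fewer cells with the transcript and less transcript per cell cannot be told apart. On the log2(FPKM + 0.5) scale the difference was −4.15 ± 0.16 (SE). That scale shrinks differences of genes with low levels, and limma-voom on the recovered fragments gave −4.66.

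Among the 11778 tested genes, only 2 had a more negative log2 fold change than Rgs16. The level of Rgs16 lay above 10.2% of tested genes with KIRA6 and above 84.3% with vehicle. Its coefficient of variation between vehicle libraries was 1.54%, where the median tested gene had 20.3%. With KIRA6 it was 22.8%, where the median was 17.2%. Such coefficients from 3 libraries are uncertain, and nothing is read from these differences. Vehicle replicate 3, which lay apart on the second principal component, differed little from the other vehicle libraries in Rgs16. Without that library and KIRA6 replicate 1 the log2 fold change was −4.26.

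Rgs2, an R4 protein selective for Gq alpha subunits, lies on chromosome 1 from 143875076 to 143879899 on the minus strand (ENSMUSG00000026360). Rgs2 had 4.84, 4.10 and 3.36 FPKM in KIRA6 replicates 1 to 3, against 1.18, 0.720 and 0.490 FPKM in Vehicle replicates 1 to 3. Every KIRA6 library was above every vehicle library, and the spread relative to the mean was wide with vehicle. The fragments behind these levels numbered 375, 271 and 242 with KIRA6 and 78, 43 and 33 with vehicle. Mean Rgs2 was 4.10 ± 0.740 FPKM with KIRA6 and 0.797 ± 0.351 FPKM with vehicle (SD, n = 3 each), 5.15-fold higher with KIRA6. The log2 fold change was 1.85 ± 0.24 (SE). The libraries that lay apart are at the outer ends for Rgs2, with the highest level in KIRA6 replicate 1 and the lowest in Vehicle replicate 3, and without both its log2 fold change was 1.56.

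Rgs16 and Rgs2 are on the same chromosome and in the same subfamily, and they differed in opposite directions. The ratio of Rgs2 to Rgs16 FPKM was 3.61, 3.63 and 4.00 in KIRA6 replicates 1 to 3, against 0.0419, 0.0262 and 0.0179 in Vehicle replicates 1 to 3. Rgs2 was thus the more abundant of the pair in every KIRA6 library, and Rgs16 in every vehicle library.

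Rgs3, an R4 gene whose longer products also bind G beta and gamma subunits, had 2.78, 3.11 and 3.45 FPKM in KIRA6 replicates 1 to 3, against 2.25, 2.60 and 3.12 FPKM in Vehicle replicates 1 to 3. The groups overlap. Mean Rgs3 was 3.11 ± 0.335 FPKM with KIRA6 and 2.66 ± 0.438 FPKM with vehicle (SD, n = 3 each). The log2 fold change was 0.20 ± 0.17 (SE). Its sign depended on the scaling, since quantile normalization of the libraries gave −0.10. Rgs4, best known from brain and heart, was at 0 in 5 libraries and had 0.0300 FPKM, or 2 fragments, in KIRA6 replicate 1. A count of 3 fragments, the limit that a count of 0 allows, corresponds to 0.0454 to 0.0587 FPKM for Rgs4, so no level was measured for it in either group.

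In the R12 subfamily Rgs10 was higher with KIRA6. Rgs10, a short protein made of little more than the RGS domain, lies on chromosome 7 from 127975345 to 128020482 on the minus strand (ENSMUSG00000030844). Rgs10 had 4.96, 5.04 and 4.74 FPKM in KIRA6 replicates 1 to 3, against 2.47, 2.23 and 2.17 FPKM in Vehicle replicates 1 to 3. The libraries of each group were close together and the groups did not overlap. Mean Rgs10 was 4.91 ± 0.155 FPKM with KIRA6 and 2.29 ± 0.159 FPKM with vehicle (SD, n = 3 each), 2.15-fold higher with KIRA6. The log2 fold change was 0.96 ± 0.13 (SE). It rests on 157 to 181 fragments in the KIRA6 libraries and on 63 to 77 fragments in the vehicle libraries, since Rgs10 has only 1711 exonic bases. Without KIRA6 replicate 1 and Vehicle replicate 3 it was 0.92.

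Rgs12, a large protein with PDZ, RAS-binding and GoLoco parts beside its RGS domain, had 5.33, 5.28 and 5.88 FPKM in KIRA6 replicates 1 to 3, against 5.86, 5.81 and 4.67 FPKM in Vehicle replicates 1 to 3. The groups overlap, and the highest and the lowest value are in the third replicate of each group. Mean Rgs12 was 5.50 ± 0.333 FPKM with KIRA6 and 5.45 ± 0.673 FPKM with vehicle (SD, n = 3 each). The log2 fold change was 0.02 ± 0.15 (SE). Its sign turned with the scaling, to −0.16 with median-ratio scaling, −0.02 after rescaling as TPM and −0.17 with quantile normalization. The sign also turned with array weights (−0.12), without KIRA6 replicate 3 (−0.03) and without Vehicle replicate 3 (−0.08). Without KIRA6 replicate 1 and Vehicle replicate 3 together the value was −0.06. The level of Rgs12 rests on 737 to 991 fragments in each library.

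Rgs14, which joins an RGS domain to RAS-binding and GoLoco parts, was low. Rgs14 had 0.180, 0.160 and 0.140 FPKM in KIRA6 replicates 1 to 3, against 0.430, 0.230 and 0.440 FPKM in Vehicle replicates 1 to 3. The FPKM values of the groups do not overlap, but they rest on 16, 12 and 12 fragments with KIRA6 and 33, 16 and 35 fragments with vehicle. KIRA6 replicate 1 and Vehicle replicate 2 thus had the same number of fragments. With no filter on low values the log2 fold change of Rgs14 was −0.38 ± 0.14 (SE).

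In the RZ subfamily only Rgs19 was well expressed. Rgs19, also known as GAIP, acts on Gi alpha subunits and lies on chromosome 2 from 181330212 to 181335770 on the minus strand (ENSMUSG00000002458). Rgs19 had 16.53, 15.36 and 14.48 FPKM in KIRA6 replicates 1 to 3, against 22.64, 21.2 and 18.97 FPKM in Vehicle replicates 1 to 3. The groups did not overlap, though the highest KIRA6 library was close to the lowest vehicle library. Mean Rgs19 was 15.5 ± 1.03 FPKM with KIRA6 and 20.9 ± 1.85 FPKM with vehicle (SD, n = 3 each), 1.35-fold lower with KIRA6. The log2 fold change was −0.42 ± 0.13 (SE), and −0.54 without KIRA6 replicate 1 and Vehicle replicate 3.

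Rgs20, which acts on Gz alpha subunits, had 0.140, 0.300 and 0.440 FPKM in KIRA6 replicates 1 to 3, against 0.0100, 0.0100 and 0.200 FPKM in Vehicle replicates 1 to 3. These are 13, 23 and 37 fragments with KIRA6 and 1, 1 and 16 fragments with vehicle. The groups overlap because KIRA6 replicate 1 was below Vehicle replicate 3, and both of these libraries lay apart on the second principal component. With no filter on low values the log2 fold change of Rgs20 was 0.47 ± 0.20 (SE). The gene shares 268 bases with Atp6v1h on the other strand, which had 5.60 to 11.75 FPKM over the 6 libraries. Whether counting used strand is not given in the sources used here, so reads there may belong to either gene. Rgs17 was at 0 in all 6 libraries, which allows up to 0.0169 to 0.0219 FPKM in a library.

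The order of levels differed between the groups. With KIRA6 the order was Rgs19 (15.5 FPKM), Rgs12 (5.50), Rgs10 (4.91), Rgs2 (4.10), Rgs3 (3.11), Rgs16 (1.10), Rgs20 (0.293) and Rgs14 (0.160). The ranges of Rgs10 and Rgs2, of Rgs2 and Rgs3, and of Rgs20 and Rgs14 overlapped, and the other neighbours were apart. With vehicle the order was Rgs16 (27.7 FPKM), Rgs19 (20.9), Rgs12 (5.45), Rgs3 (2.66), Rgs10 (2.29), Rgs2 (0.797), Rgs14 (0.367) and Rgs20 (0.0733). There only Rgs3 and Rgs10 overlapped among these neighbours. Rgs16 was thus sixth with KIRA6 and first with vehicle. The ratio of Rgs16 to Rgs19 was 0.0811, 0.0736 and 0.0580 in KIRA6 replicates 1 to 3, against 1.24, 1.30 and 1.44 in Vehicle replicates 1 to 3.

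Summed over the 10 genes, the level was 36.1, 34.5 and 33.3 FPKM in KIRA6 replicates 1 to 3, against 63.0, 60.3 and 57.4 FPKM in Vehicle replicates 1 to 3. Without Rgs16 the sum was 34.8, 33.4 and 32.5 FPKM with KIRA6, against 34.8, 32.8 and 30.1 FPKM with vehicle. The groups were apart with Rgs16 in the sum and overlapped without it. Rgs16 made up 3.17% ± 0.602 of the sum with KIRA6 and 45.99% ± 1.5 with vehicle (SD, n = 3 each). Rgs19 made up 44.6% ± 1.15 with KIRA6 and 34.7% ± 1.5 with vehicle, of sums that include Rgs16, while its own level was lower with KIRA6. The R12 genes together made up 30.6% ± 1.66 with KIRA6 and 13.4% ± 0.658 with vehicle. A sum of mRNA levels weights all members alike and says nothing of protein or activity.

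**Figure D2:**
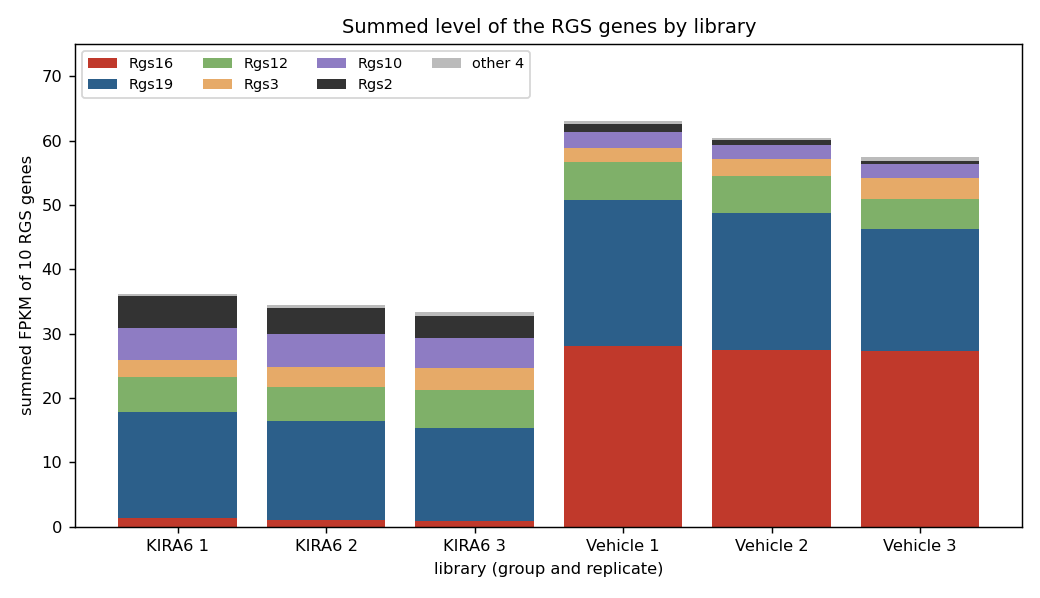
Stacked FPKM of the RGS genes in each library, with the 3 KIRA6 libraries on the left and the 3 vehicle libraries on the right; "other 4" are Rgs4, Rgs14, Rgs17 and Rgs20. The bars reach 33.3 to 36.1 with KIRA6 and 57.4 to 63.0 with vehicle, and the red Rgs16 segment averages 1.10 with KIRA6 and 27.7 with vehicle.

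The other 11 RGS genes in the table, among them the R7 genes Rgs6, Rgs7, Rgs9 and Rgs11 of nervous tissue and Rgs1, Rgs5, Rgs8, Rgs13, Rgs18, Rgs21 and Rgs22, were all below the filter. The highest was Rgs11, with 0.350, 0.400 and 0.280 FPKM in KIRA6 replicates 1 to 3, against 0.390, 0.260 and 0.180 FPKM in Vehicle replicates 1 to 3, and 4 of the 11 were at 0 in all libraries. Of the 21 RGS genes in the table, 11 lie on chromosome 1, including Rgs2, Rgs4, Rgs16 and Rgs20. Rgs8 lies 40026 bases from Rgs16 and had at most 0.0100 FPKM, and Rgs5 lies 45664 bases from Rgs4 and had at most 0.0200 FPKM.

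The tested genes with the profile most like that of Rgs16 were Areg, Ccnd1, Dusp6, Etv5 and Il24, in that order. Likeness was the Euclidean distance between log2(FPKM + 0.5) values, centred on each gene's mean, over the 6 libraries. The distance to Rgs16 was 0.338 for Areg, an EGF receptor ligand, and 0.551 for cyclin D1 (Ccnd1). It was 0.618 for Dusp6, an ERK phosphatase, 0.988 for the ETS factor Etv5 and 1.34 for the cytokine gene Il24. Areg had 1.27, 1.17 and 0.790 FPKM in KIRA6 replicates 1 to 3, against 22.2, 23.0 and 22.4 FPKM in Vehicle replicates 1 to 3. In both genes KIRA6 replicate 3 was the lowest library. The measure is set mostly by the gap between the groups, which chose Rgs16.

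**Figure D3:**
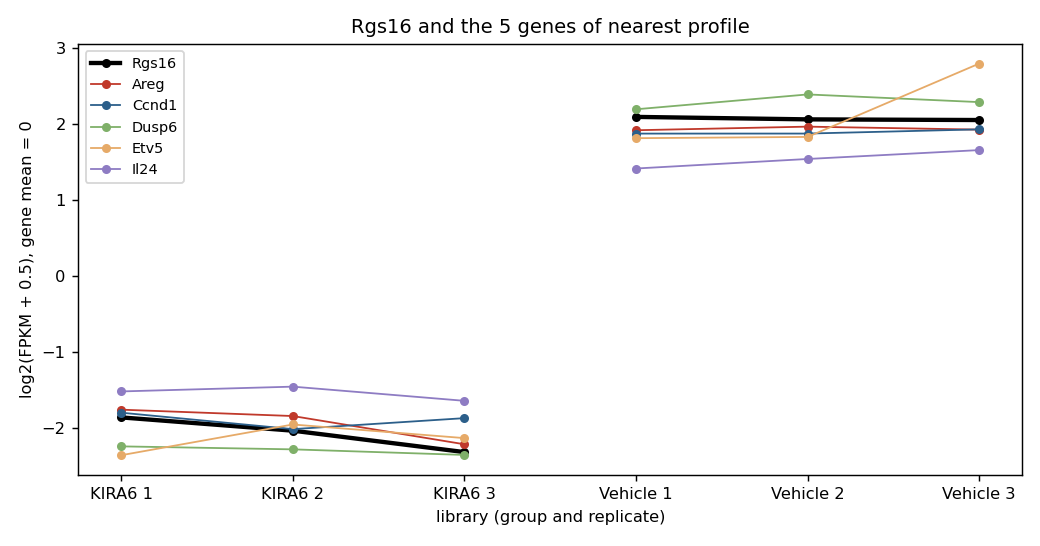
Centred log2(FPKM + 0.5) of Rgs16 (thick black line) and its 5 nearest genes in the 3 KIRA6 and the 3 vehicle libraries, each value relative to the gene's own mean over 6 libraries. Areg, at a distance of 0.338, follows Rgs16 most closely, and Etv5 departs from it in Vehicle replicate 3.

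Genes that work with RGS proteins were counted in 9 lists of G-protein signalling, 174 genes in all including the 11 other RGS genes, of which 69 passed the filter. By limma with Benjamini-Hochberg adjustment over all tested genes, 13 rose and 6 fell, 27.5% of those tested, where the background was 23.6%. Their median log2 fold change was 0.26, and that of all tested genes was 0.16. The balance depended on the scaling, with 6 higher and 9 lower under median-ratio scaling, which sets the median of all genes to −0.008, 10 and 5 after rescaling as TPM, and 8 and 5 with quantile normalization. The number called was 14, 7 and 9 without KIRA6 replicates 1, 2 and 3, and 9, 7 and 25 without Vehicle replicates 1, 2 and 3. The largest changes were among the receptors. Of the 19 genes called, 6 stayed called in each alternative that tested them, namely Gpsm2, S1pr1, Gper1, Adra1b, Bdkrb2 and P2ry2. S1pr1, Gper1, Adra1b and P2ry2 passed the filter only through the group where they were higher, so their calls say little beyond the values.

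**Figure D4:**
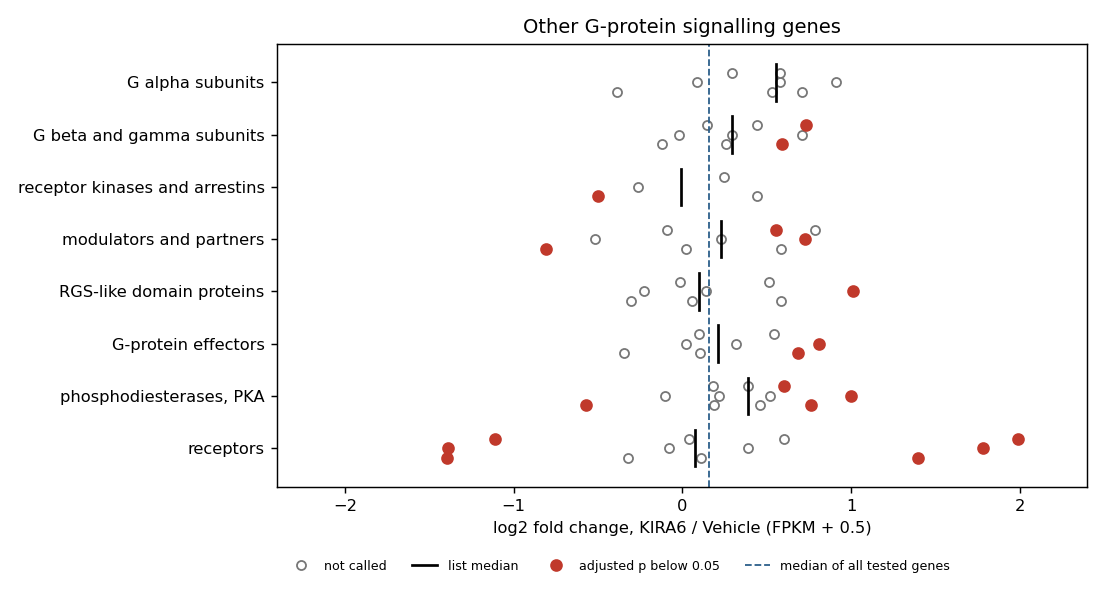
Log2 fold change, KIRA6 over vehicle, of the 69 tested genes in 8 of the lists (the list of other RGS genes had none tested); red points passed an adjusted p of 0.05, open points did not, black bars are list medians and the dashed line is the median of all tested genes, 0.16. Receptors spread widest on this log2(FPKM + 0.5) scale, from −1.40 to 1.99, and the low ones reached further with limma-voom, to 5.97 for Gper1.

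The G alpha subunits are what RGS proteins act on. Of 16 listed genes 8 were tested and 0 were called by limma, with 3 at an unadjusted p below 0.05 and 0 called by limma-voom on recovered fragments. The list median was 0.55, against 0.16 for all tested genes. Gnai2, the most abundant, had 169.5, 266.3 and 249.8 FPKM in KIRA6 replicates 1 to 3, against 112.1, 118.4 and 193.3 FPKM in Vehicle replicates 1 to 3, which overlap. Gnai3 had 52.97, 58.1 and 61.9 FPKM with KIRA6, against 45.8, 39.8 and 31.1 FPKM with vehicle, with a log2 fold change of 0.58 ± 0.17 (SE, limma adjusted p = 0.0551). Gna11, of the Gq class, had 27.03 ± 1.67 FPKM with KIRA6 and 35.6 ± 3.67 FPKM with vehicle (SD, n = 3 each; limma adjusted p = 0.0825). Leaving out Vehicle replicate 3 brought calls for Gnai2 and Gnas, both higher. Leaving out KIRA6 replicate 1, the lowest KIRA6 library for Gnao1, brought a call for Gnao1, also higher. Gnao1 had 1.10 ± 0.820 FPKM with KIRA6 and 0.297 ± 0.341 FPKM with vehicle (SD, n = 3 each; limma adjusted p = 0.247). Its groups overlap, with 0.170 FPKM in KIRA6 replicate 1 and 0.690 FPKM in Vehicle replicate 3. Gnao1 passed the filter only through the KIRA6 libraries, so that call says little beyond the values. With both KIRA6 replicate 1 and Vehicle replicate 3 left out, 6 of the 8 were called higher and 1, Gna11, lower. That fit called 6610 of all 11778 tested genes, and whether the G alpha subunits differed from that share was not tested. Median-ratio scaling brought a call for Gna11, lower, and quantile normalization a call for Gnai3, higher.

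Of 17 beta and gamma subunit genes 9 were tested, 2 rose and 0 fell, with a list median of 0.30. Gnb4 rose to 2.32 ± 0.391 FPKM with KIRA6, against 1.19 ± 0.183 FPKM with vehicle, and Gnb5, the beta subunit that pairs with R7 RGS proteins, to 7.54 ± 0.754 FPKM, against 4.87 ± 0.762 FPKM (SD, n = 3 each). Their limma adjusted p-values were 0.0242 and 0.0432, and both calls ended with median-ratio scaling and with quantile normalization (adjusted p up to 0.303 for Gnb4 and 0.226 for Gnb5). The Gnb5 call also ended with no filter. Every fit without 1 library ended both calls, except that Gnb4 stayed called without Vehicle replicate 3. Without Vehicle replicate 1 Gng2 was called higher instead, and without Vehicle replicate 3 Gnb2 was called higher beside Gnb4. The abundant Gnb1 had 129.2 ± 4.07 FPKM with KIRA6 and 130.8 ± 3.72 FPKM with vehicle.

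Among 9 tested modulators and partners of 14 listed, 2 rose and 1 fell. Gpsm2, which holds inactive Gi alpha through GoLoco motifs, had 23.8, 23.3 and 27.2 FPKM in KIRA6 replicates 1 to 3, against 14.9, 14.9 and 14.4 FPKM in Vehicle replicates 1 to 3. The groups are well apart, with a log2 fold change of 0.73 ± 0.12 (SE, limma adjusted p = 0.00827, up to 0.0484 over the alternatives). Gipc1, whose PDZ domain binds the tail of Rgs19, rose to 92.5 ± 9.92 FPKM with KIRA6, against 62.5 ± 3.05 FPKM with vehicle (SD, n = 3 each; limma adjusted p = 0.0284). Rap1gap, which switches off the GTPase RAP1 and binds Gi-class alpha subunits, fell to 1.33 ± 0.199 FPKM with KIRA6, against 2.73 ± 0.626 FPKM with vehicle (limma adjusted p = 0.0253). The Gipc1 call ended with median-ratio scaling and without KIRA6 replicate 1 or 2 or Vehicle replicate 1 or 2 (adjusted p up to 0.128). The Rap1gap call ended without any 1 KIRA6 library or Vehicle replicate 1 (adjusted p up to 0.0912).

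Of 10 receptor kinase and arrestin genes 4 were tested, 0 rose and 1 fell. Grk6, a receptor kinase that itself carries an RGS-like domain, fell to 23.8 ± 0.833 FPKM with KIRA6, against 33.97 ± 3.32 FPKM with vehicle (SD, n = 3 each; limma adjusted p = 0.0337). The Grk6 call ended with no filter, with quantile normalization and without any 1 library other than Vehicle replicate 3 (adjusted p up to 0.148). Of 8 tested genes for other proteins with an RGS-like domain, among 9 listed, 1 rose and 0 fell. Snx13, a sorting nexin, rose to 3.26 ± 0.800 FPKM with KIRA6, against 1.34 ± 0.121 FPKM with vehicle (limma adjusted p = 0.0135), and this call ended without KIRA6 replicate 2, KIRA6 replicate 3 or Vehicle replicate 2 (adjusted p up to 0.0685).

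Of 26 effector genes 8 were tested, 2 rose and 0 fell. The adenylyl cyclase gene Adcy9 rose to 1.03 ± 0.232 FPKM with KIRA6, against 0.380 ± 0.217 FPKM with vehicle, which is under the filter by itself, and the Gq effector Plcb4 to 1.89 ± 0.376 FPKM, against 0.977 ± 0.0462 FPKM (SD, n = 3 each). Their limma adjusted p-values were 0.0427 and 0.0271. Both calls ended with median-ratio scaling and quantile normalization and without KIRA6 replicate 2 or 3 or Vehicle replicate 1 or 2, with adjusted p up to 0.172 for Adcy9 and 0.194 for Plcb4, and that of Adcy9 also ended with no filter and after rescaling as TPM. Of 11 tested phosphodiesterase and protein kinase A genes, among 19 listed, 3 rose and 1 fell. The cAMP phosphodiesterase gene Pde4b rose to 2.33 ± 0.232 FPKM with KIRA6, against 1.17 ± 0.165 FPKM with vehicle (limma adjusted p = 0.0146). The catalytic subunit gene Prkaca and the inhibitor gene Pkia also rose, with log2 fold changes of 1.00 ± 0.27 and 0.60 ± 0.17 (SE), and the regulatory subunit gene Prkar2a fell by 0.57. The Pde4b call ended with quantile normalization, and no filter and rescaling as TPM ended the other 3. Median-ratio scaling ended those of Prkaca and Pkia, and quantile normalization those of Pkia and Prkar2a. Every fit without 1 library ended at least 1 of these 4 calls, and the adjusted p reached 0.140 for Pde4b, 0.147 for Prkaca, 0.165 for Pkia and 0.151 for Prkar2a. Calls in this list numbered 1 higher and 0 lower without KIRA6 replicate 2, 0 and 1 without KIRA6 replicate 3, and 0 and 0 without Vehicle replicate 1 or 2.

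Of 52 receptor genes 12 were tested, 3 rose and 3 fell, with a list median of 0.07. Gper1, a receptor for oestrogen at membranes, had 1.05, 1.26 and 1.63 FPKM in KIRA6 replicates 1 to 3, against 0, 0.0700 and 0 FPKM in Vehicle replicates 1 to 3. S1pr1, a Gi-coupled receptor for sphingosine 1-phosphate, had 1.49, 1.78 and 1.84 FPKM with KIRA6, against 0.340, 0.280 and 0.390 FPKM with vehicle. Adra1b, a Gq-coupled adrenergic receptor, had 1.51, 2.76 and 2.62 FPKM with KIRA6, against 0.0800, 0.110 and 0.430 FPKM with vehicle. All 3 were higher in every KIRA6 library than in any vehicle library, with log2 fold changes of 1.78 ± 0.18, 1.40 ± 0.15 and 1.99 ± 0.27 (SE) and limma adjusted p of 0.00151, 0.00186 and 0.00393. These 3 passed the filter on low values through the KIRA6 libraries, since their vehicle means were under 0.5 FPKM, so their calls say little beyond the values in each library. The sizes depended on the pseudocount. For Gper1 the log2 fold change was 3.55 with a pseudocount of 0.1, 1.17 with a pseudocount of 1 and 5.97 with limma-voom, and limma-voom gave 2.30 for S1pr1 and 3.72 for Adra1b.

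The 3 receptor genes that fell encode Bdkrb2, P2ry2 and F2rl1, the receptors for bradykinin, for extracellular ATP and UTP, and for trypsin-like proteases, which can signal through Gq. Bdkrb2 had 10.03, 6.63 and 6.18 FPKM in KIRA6 replicates 1 to 3, against 21.28, 21.31 and 18.75 FPKM in Vehicle replicates 1 to 3. P2ry2 had 0.210, 0.350 and 0.210 FPKM with KIRA6, against 1.05, 1.70 and 1.77 FPKM with vehicle. F2rl1 had 1.93, 2.88 and 3.12 FPKM with KIRA6, against 5.19, 5.55 and 8.23 FPKM with vehicle. None of the 3 overlapped between the groups, and their log2 fold changes were −1.40 ± 0.20, −1.39 ± 0.20 and −1.11 ± 0.24 (SE) with limma adjusted p of 0.00455, 0.00476 and 0.0179. P2ry2 passed the filter through the vehicle libraries, so its call says little beyond the values in each library. Its log2 fold change was −2.16 with a pseudocount of 0.1 and −2.54 with limma-voom. The F2rl1 call ended without KIRA6 replicate 2 or Vehicle replicate 2 (adjusted p up to 0.0634).

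The direction of the 4 RGS genes whose libraries did not overlap and that passed the filter held under each of 18 alternative settings. Groups that do not overlap keep their direction when the pseudocount, filter, weights, block or libraries change. Only the scalings and the count model could have turned it, so little is read from this. The log2 fold change of Rgs16 ran from −4.66 to −3.78, that of Rgs19 from −0.61 to −0.37, that of Rgs10 from 0.67 to 1.09 and that of Rgs2 from 1.51 to 2.43. Rgs3 and Rgs12 lay on either side of 0, with ranges of −0.10 to 0.37 and −0.17 to 0.07.

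**Figure D5:**
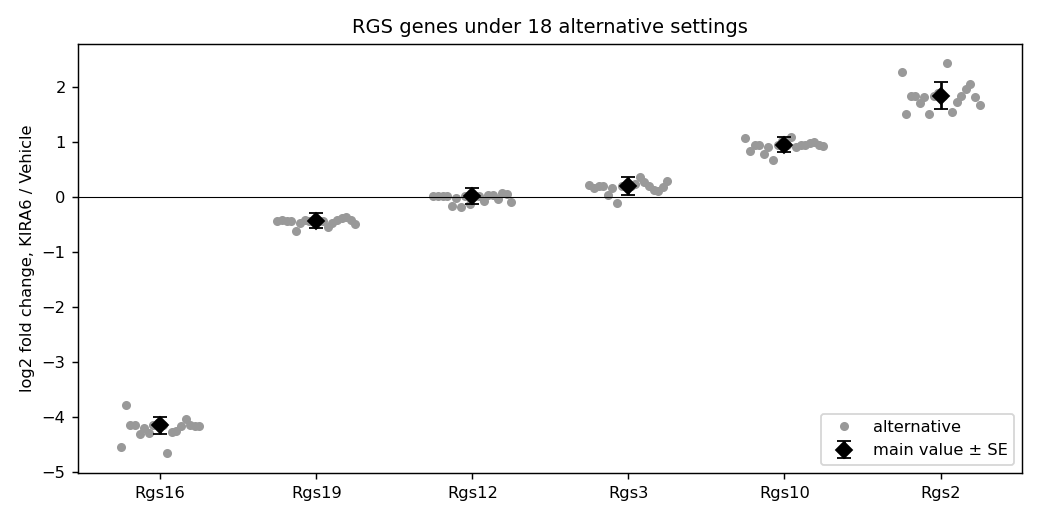
Log2 fold change, KIRA6 over vehicle, of the 6 RGS genes that passed the filter; black diamonds are the main values with the SE of the fit as bars, and grey points are the 18 alternative settings. Rgs16 stays between −4.66 and −3.78, and Rgs12 and Rgs3 cross 0.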

How the data were processed

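RNA of 6 libraries of 4T1 cells, 3 with KIRA6 and 3 with vehicle, was measured. Per the labels' protocols, poly(A) RNA was isolated and dUTP kept the strand. Named in the submitters' processing notes are the mouse build GRCm39, DESeq2 1.34.0, HTSeq 0.6.1, HISAT2 2.2.1 and cutadapt 1.9.1, with no settings. The authors deposited FPKM with 2 decimals per gene and library, beside exonic length and GRCm39 coordinates.

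FPKM times length gave whole multiples of 1 fragment in short genes, within 0.1 fragment for 100% of 565 to 798 values per library. This gave the depth, with a rounding error from the 2 decimals. Promoter windows came from RefSeq on GRCm38.p6, a build kept apart from the coordinates of the table. In R 4.3.3, limma 3.58.1 was run on log2(FPKM + 0.5) with a trend and robust variances, two-sided, with Benjamini-Hochberg adjustment over the 11778 genes whose mean reached 0.5 FPKM. An exact permutation of 3 against 3 libraries cannot go below p = 0.1, so single genes were judged by limma. Limits for counts of 0 cover counting error only. SDs come from the spread between libraries. SEs come from that spread after limma moderated it with the variances of all genes in the fit. A simulation in which 200 of 11778 genes were given a known difference showed how much limma can miss. It recovered 4% of 50 genes set to differ 1.5-fold and 40% of 50 set to differ 2-fold. At 4-fold 82% and at 8-fold 92% were recovered, and 7 of the 116 calls were false. A gene without a call may therefore still differ between the groups. In the measured data 23.6% of tested genes were called, so these rates apply only roughly.

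Members and lists were chosen with earlier results of these data known. Named are all 10 members, up to 4 called genes per direction in each list, and the 5 genes nearest to Rgs16. Other genes were named after their values were seen. The 18 alternatives changed the pseudocount, filter, scaling, empirical Bayes settings, weights, block, count model and libraries.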

Additional observations from a re-analysis of the deposited data

How the results depend on the processing

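Settings moved the number of calls more than the RGS values. Of 11778 tested genes 2783 were called, and 1211 to 3392 with 1 library left out in turn, against 19 and 7 to 25 for the 69 tested signalling genes. Calls numbered 6610 and 44 without KIRA6 replicate 1 and Vehicle replicate 3 together, and 10003 and 58 with array weights, whose estimation did not converge. The replicate block gave 4423 and 32 calls. Residuals of same-numbered libraries correlated at 0.76, −0.47 and 0.74. Some libraries of unlike number also correlated, KIRA6 replicate 1 with Vehicle replicate 2 at 0.71 and KIRA6 replicate 2 with Vehicle replicate 3 at 0.52. Whether the numbers pair the libraries cannot be told from this, and the main fit treated them as unpaired. The share of higher calls was 66.2%, against 47.4% with median-ratio scaling, 59.7% after rescaling as TPM and 48.9% with quantile normalization.

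Log2 fold changes of RGS genes moved by more than the spread between libraries as follows. A pseudocount of 0.1 gave −4.55 for Rgs16, 2.29 for Rgs2 and 1.07 for Rgs10, and a pseudocount of 1 gave −3.78, 1.51 and 0.85. Limma-voom on recovered fragments gave −4.66, 2.43 and 1.09. Median-ratio scaling gave 0.79 for Rgs10, −0.16 for Rgs12 and −0.61 for Rgs19. Quantile normalization gave 1.52 for Rgs2, −0.10 for Rgs3, 0.67 for Rgs10 and −0.17 for Rgs12. Array weights gave −0.12 for Rgs12. Without KIRA6 replicate 1 and Vehicle replicate 3 together, Rgs3 was at 0.37 and Rgs19 at −0.54. With 1 library left out, none of the 6 moved by that much. Other causes were not tested. Of 339 fits of the 19 named signalling genes under the alternatives, 260 kept the call, 79 lost it and 0 changed sign. These genes were named because they were called, so little is read from these totals. With array weights, which called 10003 of all tested genes, 19 of 19 stayed called. Without KIRA6 replicate 2 or without Vehicle replicate 2, 7 of 19 did. Low counts limit Rgs4, Rgs14, Rgs17 and Rgs20, which rest on 0 to 37 fragments per library.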

Other observations

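Of 8 genes within 100000 bases of Rgs16, none passed the filter on low values and 4 were at 0 in all libraries. Gm28513, on the other strand and sharing 1917 bases with Rgs16, was at 0 in the KIRA6 libraries and had 1, 4 and 1 fragments in Vehicle replicates 1 to 3. Rgs2 had no other gene within 100000 bases in the table. These genes were picked out after their values were seen.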
